A study of Mus musculus with 13 samples.

Results

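The transcripts described here encode synaptic adhesion molecules, the surface and secreted proteins that join the presynaptic to the postsynaptic membrane. They were chosen by name, as 40 gene symbols of 11 families, and all 40 were present in the count tables, among 22682 symbols shared by all 13 libraries. The families are the neurexins (2 genes), neuroligins (2), cerebellins (4), LRRTM (4), SLITRK (6), LRFN (5), FLRT (3), teneurins (4), the LAR-type receptor phosphatases (3), CADM (4) and calsyntenins (3). Shares within a family are shares of these listed genes.

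The series measured ribosome-bound mRNA of medial habenula neurons in Gpr151 knockout mice and controls; Gpr151 is an orphan receptor of the G protein-coupled class found in habenular neurons. All mice carried the Chat-TRAP DW167 transgene, which places a GFP-tagged ribosomal protein in cholinergic cells. Anti-GFP beads then pull down polysomes of these cells with their mRNA, a method named translating ribosome affinity purification (TRAP). There were 6 immunopurified (IP) libraries from Gpr151 knockout mice (KO, Gpr151-KO::Chat-TRAP DW167), 6 IP libraries from mice with the transgene alone (called wild type, WT, here) and 1 library of unpurified homogenate (input) from such WT mice. All mice were adults older than 8 weeks, and each library pooled the medial habenula of 4 mice, or of 3 for the KO library numbered 855 and the WT library numbered 852. Replicates are thus separate pools of animals, each carrying transgene line DW167.

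Neurexins and LAR-type phosphatases sit mainly on the presynaptic side. Neuroligins, LRRTM, SLITRK and LRFN proteins are their postsynaptic partners, and cerebellins are secreted proteins that bridge neurexins to delta-type glutamate receptors. Teneurins and FLRT proteins bind latrophilins across the cleft, CADM proteins bind one another, and calsyntenins are cadherin-related membrane proteins. Medial habenula neurons project to the interpeduncular nucleus, where they release acetylcholine and glutamate.

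Counts assigned to genes ranged from 32623249 to 64388596 in KO IP libraries, from 28375912 to 58502055 in WT IP libraries, and the input had 54701790. Levels are given as CPM, counts scaled to the total gene counts of a library. Of 9 medial habenula markers, all 9 were at least 2 times as high in each WT IP library as in input, with a median log2 ratio of 3.20. Gpr151 itself was lower in KO IP than in WT IP libraries, with a log2 fold change of -1.63 ± 0.17 (SE; adjusted p = 0.00592, edgeR's quasi-likelihood test with Benjamini-Hochberg adjustment). Libraries differed in transcripts of other cells. The summed level of 32 glial markers was 335 to 3125 CPM in KO IP libraries (median 782), 318 to 1763 CPM in WT IP libraries (median 517) and 4461 CPM in input. A glial marker score, the mean log2 CPM over the 32 genes, was highest in the KO libraries 1099 (4.13) and 1102 (3.57) and the WT library 1091 (3.30), and was 1.13 to 2.56 in the other 9 IP libraries. Of the 32 markers, none was at 0 in every IP library. Fewer cells of a type and less RNA per cell cannot be told apart in such pooled tissue.

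Among the adhesion transcripts, those with the highest level per length in the cholinergic cells were a calsyntenin and 2 cerebellins. Levels between genes were compared as CPM per kilobase of merged exons. Clstn1, which encodes a calsyntenin that links kinesin motors to vesicles, averaged 145 ± 19.5 CPM per kilobase in KO IP and 146 ± 16.5 in WT IP libraries (SD, n = 6 each), and was 68.9 in input. Cbln4 averaged 64.7 ± 21.2 CPM per kilobase in KO IP and 64.5 ± 15.4 in WT IP libraries, with 21.5 in input. Cbln2 averaged 59.2 ± 14.7 CPM per kilobase in KO IP and 61.3 ± 3.84 in WT IP libraries, with 25.1 in input. Cbln4 and Cbln2 thus lay within each other's spread between libraries, and Clstn1 lay above both. Next in the WT IP order came Cadm3, Cadm2, Nlgn3, Ptprs, Tenm2, Slitrk3 and Lrrtm1, from 27.0 ± 2.49 CPM per kilobase for Cadm3 to 14.5 ± 3.99 for Lrrtm1 (SD, n = 6), and neighbours in that order lay within their spread of each other. The median over the 40 genes was 10.0 CPM per kilobase in KO IP and 9.60 in WT IP libraries. At the low end, Cbln3, a cerebellin known from cerebellar granule cells, was at 0 to 1.94 CPM in KO IP libraries, 0.0705 to 1.71 CPM in WT IP libraries and 0.640 CPM in input.

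The upstream sequences of Clstn1 and Cbln4 are shown because these are the calsyntenin and the cerebellin with the highest level per length, and because they differ in base composition. Each is the 250 bases before the annotated start in RefSeq (GRCm38.p6), with CG pairs in capitals. Clstn1 lies on the plus strand of chromosome 4 (chr4:149586218-149586467) and Cbln4 on the minus strand of chromosome 2 (chr2:172043467-172043716).
Clstn1: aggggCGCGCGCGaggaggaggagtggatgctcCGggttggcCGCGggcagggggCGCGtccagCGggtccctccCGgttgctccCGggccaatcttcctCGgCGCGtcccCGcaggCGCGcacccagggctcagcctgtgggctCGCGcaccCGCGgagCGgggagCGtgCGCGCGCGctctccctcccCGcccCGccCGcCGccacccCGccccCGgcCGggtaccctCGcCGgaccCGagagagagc
Cbln4: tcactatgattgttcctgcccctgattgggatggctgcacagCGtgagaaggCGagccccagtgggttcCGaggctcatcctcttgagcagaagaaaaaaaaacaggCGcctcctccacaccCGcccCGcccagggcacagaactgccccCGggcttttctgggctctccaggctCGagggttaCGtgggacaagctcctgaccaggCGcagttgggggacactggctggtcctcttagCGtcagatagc
The Clstn1 window held 38 CG pairs at 80.0% G and C, and the Cbln4 window 11 at 60.8%. The medians over 32851 mouse promoters of this length were 6 CG pairs and 52.4%. Over 37 promoters of 29 member genes in the table, they were 8 and 57.6%. The cAMP response element TGACGTCA, searched on both strands, was in the windows of Clstn2, Slitrk2 and Tenm3 (3 of 37 promoters), against 1.55% of all promoters. The NBRE AAAGGTCA, the monomer site of NR4A nuclear receptors, was in that of Tenm1 alone (1.34% of all promoters). TATAAA was in those of Lrrtm4 and Tenm1 (12.4% of all promoters). A match is a run of letters, and binding was not measured.

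The comparison of IP with input asks which of these mRNAs were more abundant on the ribosomes of cholinergic cells than in the whole dissected tissue. Cbln4 and Cbln2 were enriched and Nrxn3 was depleted. With 1 input library, a rule of size that carries no p-value was used, on CPM with a pseudocount of 1. Enriched transcripts reached 2 times the input level or more in all 6 WT IP libraries, and depleted ones reached the inverse of that ratio or less in all 6. A level of 5 CPM was required, either in the input or in the mean of the WT IP libraries. Of 40 members, 39 reached that level (Cbln3 did not), 2 of them were enriched and 1 was depleted. Over all 11131 genes at that level, 5.83% were enriched and 8.33% depleted. The enriched share of the members, 5.13%, was near that background, and their depleted share, 2.56%, was below it. The median log2 ratio of the 39 members was -0.36, against 0.11 for all genes. The input held no row for Rn45s, the ribosomal RNA precursor, which took 2.25% to 12.6% of gene counts in IP libraries. Library sizes from the shared symbols moved the median of all genes to -0.07, and then Cbln2 was not called and Lrrtm2 was also depleted. The gene sets counted also differed, with 37328 symbols in input and 24454 or 32531 in IP libraries. Reads set aside as ambiguous were 3.98% in input, 0.581% to 1.36% in KO IP and 0.612% to 1.33% in WT IP libraries. The part of this difference in the ratios to input was not tested.

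The cerebellins lay on both sides of the input. Cbln4 (chr2:172036233-172043466, minus strand, GRCm38), which encodes a secreted ligand of neurexins and of DCC-family receptors, was at 134, 166 and 281 CPM in KO IP libraries (lowest, median, highest) and at 149, 168 and 244 CPM in WT IP libraries, against 62.4 CPM in input. All 12 IP libraries lay above the input, and the KO and WT ranges overlapped. The log2 ratio to input had a median of 1.40 in KO IP (1.09 to 2.15) and 1.41 in WT IP libraries (1.25 to 1.95), and Cbln4 was the 1 member that passed the rule of size in both genotypes. Cbln2 (chr18:86711110-86718283, plus strand), a neurexin and GluD ligand, was at 118, 171 and 230 CPM in KO IP libraries and at 159, 179 and 191 CPM in WT IP libraries, against 72.7 CPM in input. Its 2 lowest values were the KO libraries 1099 and 1102, so that its log2 ratio reached down to 0.69 in KO IP (median 1.22, up to 1.65), against 1.12 to 1.38 in WT IP libraries (median 1.29). Cbln1, the cerebellin that organizes parallel fibre synapses in the cerebellum, went the other way. It had 27.9 to 44.5 CPM in KO IP and 28.4 to 51.1 CPM in WT IP libraries, all below the 72.5 CPM of the input. Per kilobase, Cbln4, Cbln2 and Cbln1 held 47.0%, 43.5% and 9.42% of the family in KO IP, 46.2%, 44.8% and 8.85% in WT IP, and 30.4%, 35.6% and 33.8% in input. The 3 transcripts were thus near equal in the tissue, and 2 of them made up most of the family on the captured ribosomes. Which of Cbln4 and Cbln2 leads depends on the length used: Cbln2 led by the longest transcript.

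**Figure D1:**
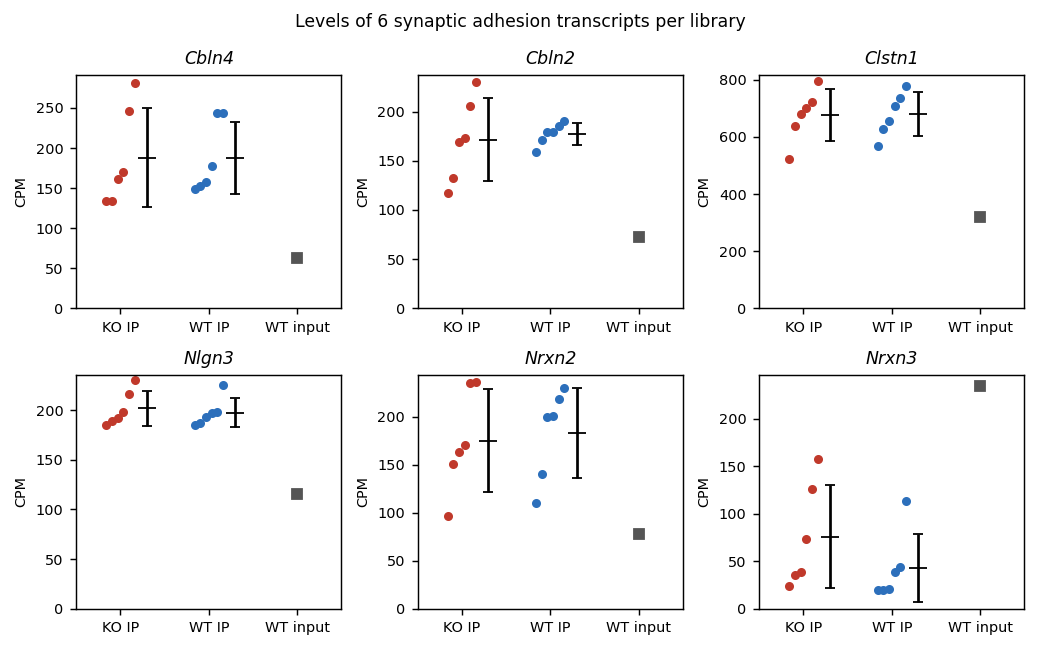
CPM of Cbln4, Cbln2, Clstn1, Nlgn3, Nrxn2 and Nrxn3 in 6 KO IP libraries (red), 6 WT IP libraries (blue) and 1 WT input library (grey square); points are libraries sorted by level, bars are mean and SD. All IP values of the first 5 genes lie above the input (Nrxn2 from 96.5 against 78.3 CPM), those of Nrxn3 lie below it, and the KO and WT ranges overlap in every panel.

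The neurexins, presynaptic receptors of the cerebellins, lay on opposite sides of the input. Nrxn2 (chr19:6418731-6544169, plus strand) was at 96.5, 167 and 236 CPM in KO IP libraries and at 110, 200 and 229 CPM in WT IP libraries, against 78.3 CPM in input. Its log2 ratio had a median of 1.08 in KO IP (0.30 to 1.58) and 1.34 in WT IP libraries (0.48 to 1.54), above 0 in all 12, with the lowest value of each genotype in libraries 1099 and 1091. Nrxn3 (chr12:88722876-90334935, plus strand) was at 24.4, 56.3 and 157 CPM in KO IP libraries and at 19.9, 29.8 and 113 CPM in WT IP libraries, against 235 CPM in input. All 12 IP libraries lay below the input, and the highest value in each genotype was that of libraries 1099 and 1091. The log2 ratio had a median of -2.11 in KO IP (-3.21 to -0.58) and -3.00 in WT IP libraries (-3.49 to -1.05), a median level 8.00 times lower in WT IP than in input. Per kilobase, Nrxn2 held 68.5% ± 20.9 of the pair in KO IP and 79.7% ± 16.6 in WT IP libraries (SD, n = 6 each), and 23.3% in input. In input Nrxn3 was thus the more abundant of the pair. An overlap with other genes covers 6.44% of the exon bases of Nrxn2, and strand use in counting is not given in the sources. In all, 5 members have more than 5% of their exon bases overlapped. Beside Nrxn2 and Nlgn3 they are Lrrtm4 (25.1%), Nlgn1 (9.16%) and Tenm1 (8.25%), each on the opposite strand, and the same limit holds for their levels.

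Nlgn3, a postsynaptic neurexin receptor found at excitatory and inhibitory synapses, varied least over the IP libraries of the 37 members at 5 CPM or more, 1.24 times from lowest to highest. It was at 185, 195 and 230 CPM in KO IP libraries and at 185, 195 and 225 CPM in WT IP libraries, against 116 CPM in input. Each of the 12 IP libraries lay above the input, at a median log2 ratio of 0.75 in KO IP and 0.75 in WT IP libraries. Nlgn1, known from excitatory synapses, had median log2 ratios of -0.67 in KO IP and -0.65 in WT IP libraries, with 1 library of each genotype above the input. Nlgn3 held 87.2% ± 4.50 of the pair per kilobase in KO IP and 87.5% ± 2.80 in WT IP libraries, and 73.5% in input. For this gene, 41.2% of the exon bases are shared with an overlapping gene model on the same strand, Gm21986, so its count depends on how such reads were assigned.

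Of the postsynaptic leucine-rich repeat families, LRRTM transcripts were mostly lower in IP than in input. Lrrtm1, a neurexin ligand of excitatory synapses, was at 46.1, 49.9 and 75.7 CPM in KO IP libraries and at 36.0, 39.9 and 68.2 CPM in WT IP libraries, against 99.1 CPM in input. The highest values were those of libraries 1099, 1102 and 1091, and the other 5 WT IP libraries lay between 36.0 and 42.5 CPM. Its median log2 ratio was -0.98 in KO IP and -1.29 in WT IP libraries. Lrrtm2, also a neurexin ligand, had a median of -1.48 in KO IP and -1.70 in WT IP libraries and was below 0 in all 12. Lrrtm3 had medians of -0.09 in KO IP and -0.30 in WT IP libraries. Lrrtm4, a ligand of neurexins and glypicans, had medians of -0.56 in KO IP and -0.77 in WT IP libraries at levels of 3.28 to 18.8 CPM. Lrrtm1 held 41.5% ± 3.79 of the family per kilobase in KO IP and 39.1% ± 4.08 in WT IP libraries, and 38.4% in input, while Lrrtm2 held 36.0% in KO IP, 36.4% in WT IP and 48.5% in input. By coding length or by counts alone Lrrtm2 led in place of Lrrtm1.

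SLITRK proteins, ligands of the LAR-type phosphatases, were split. Slitrk2 and Slitrk5 were higher in each of the 12 IP libraries than in input, with median log2 ratios of 0.96 and 0.63 in KO IP and 1.07 and 0.69 in WT IP libraries. Slitrk6, which in mice is needed for innervation of the inner ear, was at 9.73, 26.3 and 85.9 CPM in KO IP libraries and at 10.1, 18.7 and 68.5 CPM in WT IP libraries, against 98.4 CPM in input. In WT, 5 libraries were at 20.1 CPM or less and library 1091 stood at 68.5 CPM. Slitrk3, an organizer of inhibitory synapses, was at 68.3, 86.7 and 102 CPM in KO IP libraries and at 58.2, 76.4 and 101 CPM in WT IP libraries, against 111 CPM in input. Slitrk1 was at 66.8, 80.2 and 94.7 CPM in KO IP libraries and at 58.9, 70.3 and 78.9 CPM in WT IP libraries, against 90.2 CPM in input, and 3 KO libraries lay above all WT libraries. Slitrk3 held 28.9% of the family per kilobase in KO IP, 28.7% in WT IP and 30.2% in input, and Slitrk1 held 24.3% in KO IP, 23.6% in WT IP and 22.2% in input. No SLITRK gene held most of its family, and by coding length Slitrk1 led in place of Slitrk3.

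LRFN proteins are postsynaptic and several bind PSD-95. Lrfn5, whose protein binds the LAR-type phosphatases, was at 48.3, 67.2 and 110 CPM in KO IP libraries and at 41.2, 60.7 and 101 CPM in WT IP libraries, against 128 CPM in input. All 12 IP libraries lay below the input. Lrfn5 held 43.3% ± 13.3 of the family per kilobase in KO IP and 41.2% ± 11.7 in WT IP libraries, and 55.4% in input. Lrfn3 was second, with 31.8% in KO IP, 33.9% in WT IP and 17.2% in input. These shares depend on the length used: by coding length Lrfn5 held 66.2% in KO IP, 64.6% in WT IP and 76.9% in input, and by counts alone Lrfn3 held 16.3% in KO IP, 17.5% in WT IP and 7.34% in input. Lrfn1, Lrfn2 and Lrfn4 stayed at or below 12.0 CPM in every IP library, which leaves the LRFN levels resting mainly on Lrfn5 and Lrfn3.

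Among the latrophilin ligands, 1 FLRT and 1 teneurin led their families in IP. Flrt2, a latrophilin and UNC5 ligand, was at 63.9, 72.8 and 92.3 CPM in KO IP libraries and at 60.9, 73.1 and 87.0 CPM in WT IP libraries, against 53.4 CPM in input. All 12 IP libraries lay above the input. Flrt2 held 61.0% ± 11.4 of the family per kilobase in KO IP and 67.9% ± 7.96 in WT IP libraries, and 40.4% in input, while Flrt1 held 18.2% in KO IP, 11.2% in WT IP and 37.9% in input. Tenm2 was at 118, 229 and 330 CPM in KO IP libraries and at 134, 202 and 305 CPM in WT IP libraries, against 118 CPM in input. The WT IP values all exceeded the input. Tenm2 held 47.1% ± 6.26 of the family per kilobase in KO IP and 51.6% ± 7.22 in WT IP libraries, and 27.2% in input. In input Tenm3 led with 36.5%. Of the 37 members at 5 CPM or more, Tenm4 varied most over the 12 IP libraries, 11.9 times from lowest to highest.

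Ptprs, a LAR-type receptor phosphatase of axons and presynaptic terminals, was at 232, 279 and 383 CPM in KO IP libraries and at 235, 294 and 343 CPM in WT IP libraries, against 175 CPM in input. All 12 IP libraries lay above the input. Ptprs held 68.0% ± 12.5 of the family per kilobase in KO IP and 72.8% ± 9.55 in WT IP libraries, and 47.4% in input. Ptprd, the paralog that binds Slitrk3 and IL1RAPL1, had median log2 ratios of -0.98 in KO IP (-2.18 to 0.31) and -1.55 in WT IP libraries (-1.86 to -0.02). Ptprs and Ptprd thus lay on opposite sides of the input, Ptprs above and Ptprd below by the median in both genotypes. Ptprf, the other listed phosphatase, lay near the input. Its median log2 ratio was 0.18 in KO IP (-0.55 to 0.54) and 0.02 in WT IP libraries (-0.25 to 0.29).

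Cadm3, Cadm2 and Clstn1 were among the 10 members of highest level per kilobase in WT IP libraries. Cadm3 was at 199, 211 and 273 CPM in KO IP libraries and at 172, 200 and 222 CPM in WT IP libraries, against 269 CPM in input. The WT IP values were all below the input, and 1 KO IP library, 855, was above it. Cadm3 held 39.1% ± 4.45 of the family per kilobase in KO IP and 36.5% ± 4.17 in WT IP libraries, and 41.9% in input, with Cadm2 at 32.5% in KO IP, 33.5% in WT IP and 37.8% in input. By coding length or by counts alone Cadm2 led. Cadm1, an adhesion molecule of excitatory synapses, had a median log2 ratio of 0.64 in both genotypes and lay above the input in all 12 libraries. Clstn1 (chr4:149586468-149648899, plus strand) was at 523, 690 and 794 CPM in KO IP libraries and at 568, 682 and 778 CPM in WT IP libraries, against 321 CPM in input. All 12 IP libraries lay above the input, at a median log2 ratio of 1.10 in KO IP and 1.08 in WT IP libraries. The lowest value of each genotype was that of libraries 1099 and 1091. Clstn1 held 85.4% ± 4.50 of its family per kilobase in KO IP and 87.0% ± 3.46 in WT IP libraries, and 73.1% in input, and Clstn2 and Clstn3 shared the rest.

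**Figure D2:**
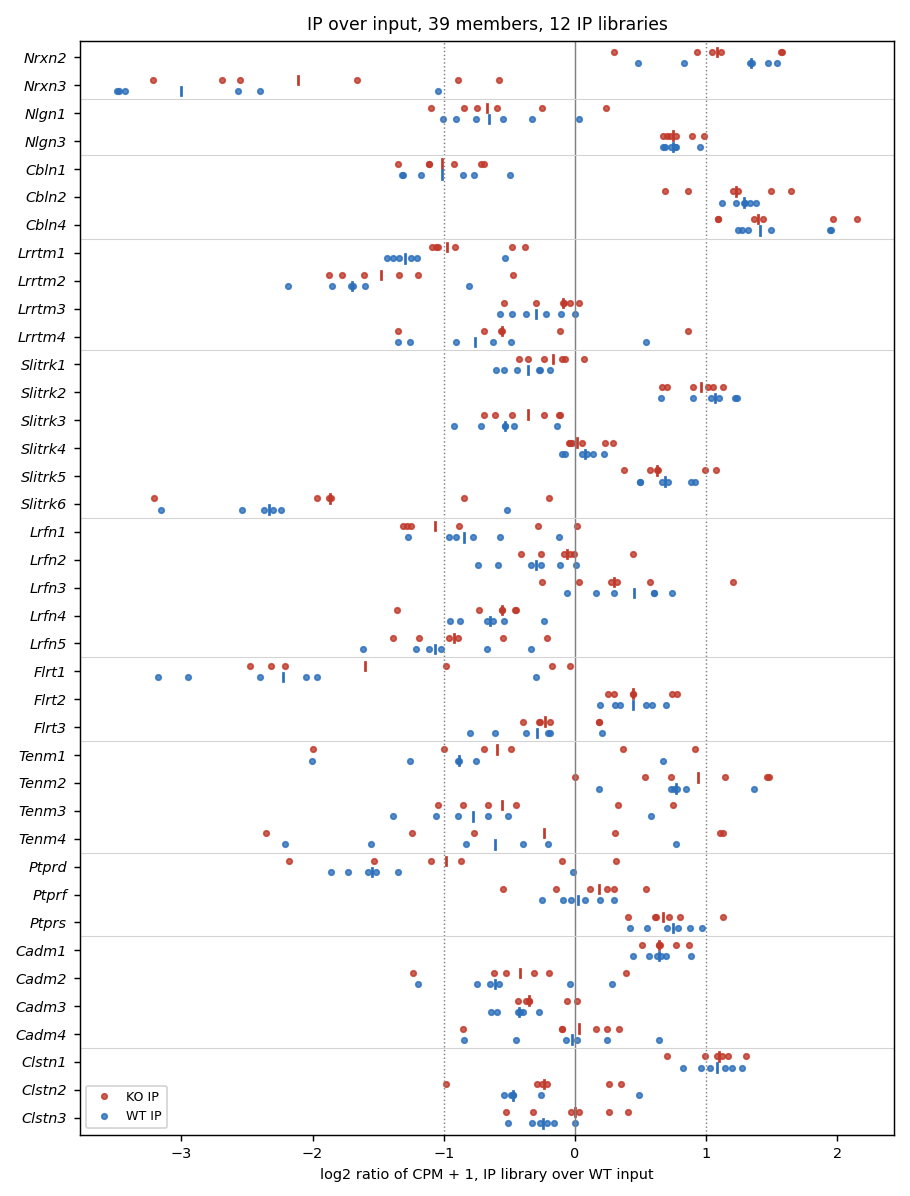
Log2 ratio of CPM + 1 in each IP library over the WT input for 39 members, grouped by family; red points are 6 KO IP libraries, blue points 6 WT IP libraries, short bars medians, dotted lines a ratio of 2 in either direction. Cbln2 and Cbln4 lie to the right of the dotted line in every WT library and Nrxn3 lies to the left of it, with a median of -3.00 in WT IP.

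**Figure D3:**
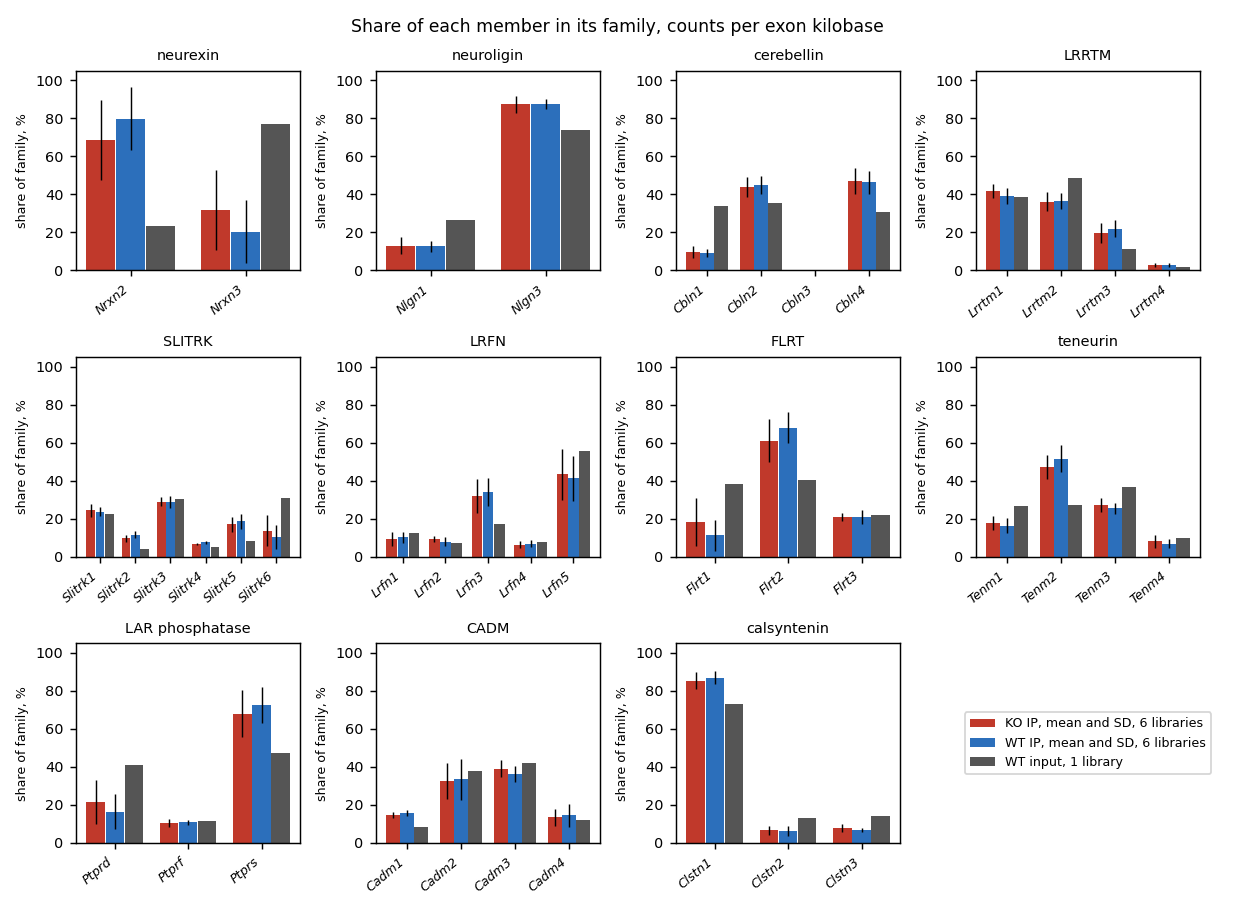
Share of each member in the summed counts per exon kilobase of its listed family, in percent, as mean and SD of 6 KO IP libraries (red) and 6 WT IP libraries (blue) and in the 1 WT input library (grey). Nrxn2, Nlgn3, Flrt2, Ptprs and Clstn1 hold at least 61.0% of their family in both genotypes, and the input differs most in the neurexins (Nrxn2 23.3%).

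By direction, 10 of the 39 members were above the input in every KO IP library and 11 in every WT IP library, and 9 were below it in every KO IP and 13 in every WT IP library. Of all genes at that level, 25.6% were above the input in every KO IP and 32.2% in every WT IP library, and 23.8% were below it in every KO IP and 27.6% in every WT IP library. In KO IP libraries, set against the same WT input, 1 of 39 members was enriched (Cbln4) and 0 were depleted, against 4.19% and 5.20% of 11084 genes. The WT rule rested on library 1091 for the depleted members: without it, 6 of 39 were depleted (Nrxn3, Lrrtm1, Lrrtm2, Slitrk6, Flrt1 and Ptprd), against 12.4% of all genes, and the enriched members were again Cbln2 and Cbln4, against 7.23% of all genes. At a ratio of 1.5 in place of 2, Nlgn3, Slitrk2 and Clstn1 were enriched as well, which made 5 of 39 against 11.8% of all genes, and Lrrtm2 was depleted as well, which made 2 of 39 against 13.4%. Fitted with edgeR, with the input's own variation taken to be that of the IP libraries, 5 members were higher in IP (Nlgn3, Cbln2, Cbln4, Slitrk2, Clstn1) and 2 were lower (Lrrtm1, Lrrtm2), while Nrxn3 had a log2 ratio of -2.45 and a Benjamini-Hochberg adjusted p of 0.052. In that fit, 7.87% of 15899 genes were higher and 9.43% lower.

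Several members were highest in the libraries with the most glial marker RNA. For 13 of 37 members at 5 CPM or more in IP, the libraries 1091, 1099 and 1102 held the 3 highest of the 12 IP values, and so they did for 16.9% of 10215 genes at that level. The 13 were Nrxn3, Lrrtm1, Lrrtm2, Lrrtm4, Slitrk3, Slitrk6, Flrt1, Tenm1, Tenm2, Tenm3, Tenm4, Ptprd and Clstn2, and 12 of them had a median below the input in WT IP libraries, Tenm2 being the exception. In libraries 1099, 1102 and 1091 some of the 12 nonetheless exceeded the input. Tenm1 was at 335, 228 and 283 CPM (input 177), Tenm3 at 237, 178 and 212 (input 141). Tenm4 was at 174, 171 and 136 CPM (input 79.0), Clstn2 at 89.0, 83.2 and 98.1 (input 69.6). Ptprd and Lrrtm4 exceeded it in some of these libraries. Nrxn3, Lrrtm1, Lrrtm2, Slitrk3, Slitrk6 and Flrt1 stayed below it in each. For 2 members, Cbln2 and Lrfn3, these libraries held the 3 lowest values (16.3% of all genes), and both had a median above the input. Markers of other neurons varied between IP libraries as well. The summed level of 6 GABAergic neuron markers was 64.9 to 360 CPM in KO IP and 21.9 to 186 CPM in WT IP libraries. It was 616 CPM in input. For 5 thalamic neuron markers it was 1520 to 2767 CPM in KO IP, 1555 to 2239 CPM in WT IP and 3261 CPM in input. Most of that IP sum was Tcf7l2, which averaged 1245 CPM in KO IP and 1303 CPM in WT IP, against 1380 CPM in input. Tcf7l2 and Lef1 lay near the input, with median log2 ratios of -0.08 and 0.09 in WT IP libraries. Prkcd, Rora and Synpo2 lay below it (-2.07, -2.19 and -3.28), so the 5 genes did not go together. The parts of glia and of other neurons in the members' values were not tested.

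**Figure D4:**
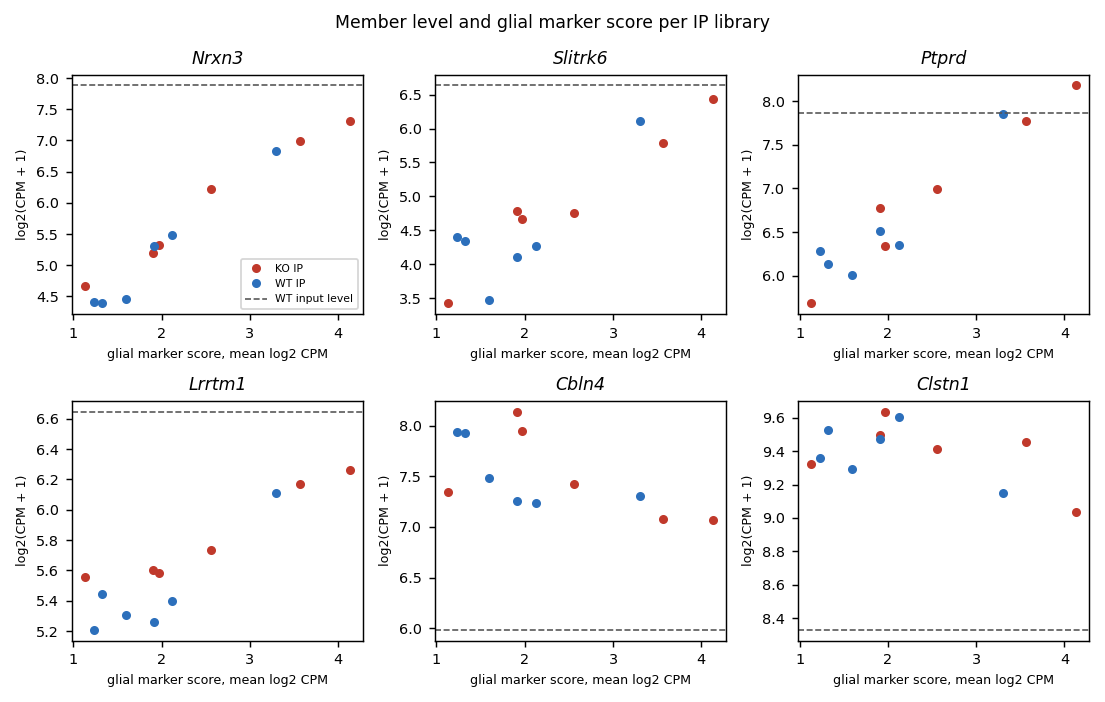
Level of 6 members, as log2(CPM + 1), against the glial marker score (mean log2 CPM of 32 genes) in 6 KO IP libraries (red) and 6 WT IP libraries (blue); the dashed line is the WT input level. In the 3 libraries with a score of 3.30 or more, Nrxn3, Slitrk6, Ptprd and Lrrtm1 are at their highest, and Clstn1 and Cbln4 are not.

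The comparison of genotypes asks whether ribosome-bound adhesion mRNAs of these neurons differ when Gpr151 is disrupted. None of the 40 members passed the test. By edgeR's quasi-likelihood test with Benjamini-Hochberg adjustment over all genes, 0 of 40 were called, where 0.0140% of 14317 genes were. At an unadjusted p under 0.05 there were also 0 of 40, against 3.06% of all genes, and DESeq2 called 0 of 40 (0.0838% of all genes), with 1, Nrxn3, at an unadjusted p under 0.05 (4.56% of all genes). The KO and WT ranges of CPM overlapped in all 40 members, and 0.149% of 14065 genes had ranges that did not. Before adjustment the 5 members with the smallest p were Cadm3, Lrrtm1, Nrxn3, Slitrk1 and Slitrk3, all with higher estimates in KO.

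Nrxn3 had the highest estimate, a log2 fold change of 0.82 ± 0.42 (SE; 95% interval -0.10 to 1.73; edgeR adjusted p = 0.999), with 2 KO libraries above all WT libraries and the WT library 1091 above the other 4 KO libraries. With the glial score as a term, the estimate of Nrxn3 was 0.21, and without the 3 libraries of highest glial score it was 0.64. Lrrtm1 had a log2 fold change of 0.38 ± 0.19 (95% interval -0.02 to 0.79), and each of its KO values lay above the WT median. Cadm3 had 0.23 ± 0.11 (-0.01 to 0.46), Slitrk1 0.22 ± 0.12 (-0.05 to 0.49) and Slitrk3 0.20 ± 0.11 (-0.05 to 0.45). For these 4 the edgeR adjusted p was 0.999, and over the alternatives tried the adjusted p of the 5 members ran from 0.650 to 1.00. Within the library sets, Nrxn3, Lrrtm1, Slitrk1 and Slitrk3 were higher in KO in all 3, and Cadm3 in 2. These 5 members were picked by the smallest p over the same libraries, so their agreement in sign is no separate evidence. The sets of libraries 682 and 683 and of libraries 852 and 855 hold no replicates. In all, 7 members were higher in KO in all 3 sets, among them Cadm1 with a log2 fold change of 0.05. The share over all genes was not computed. For Nrxn3 the differences in log2(CPM + 1) were 0.21 between libraries 683 and 682, 0.94 between libraries 855 and 852, and 0.92 between the later KO and WT libraries, by their means.

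The intervals limit how large a difference could have gone unseen. For 18 of 40 members the 95% interval of the log2 fold change lay within 0.5 of 0 in either direction, a 1.41-fold difference, and for 31 within 1. The narrowest was that of Nlgn3. Clstn1 had a log2 fold change of 0.01 (95% interval -0.23 to 0.25), Ptprs 0.01 (-0.20 to 0.23) and Nlgn3 0.05 (-0.16 to 0.25). Slitrk4 had 0.04 (-0.19 to 0.28) and Cadm1 0.05 (-0.18 to 0.28). The cerebellins called against input had wider intervals, Cbln2 -0.05 (-0.33 to 0.23) and Cbln4 0.01 (-0.41 to 0.43). For these transcripts a log2 difference of 0.5 in either direction lay outside the interval. The widest intervals were those of Cbln3 (-1.90 to 1.05), Flrt1 (-0.25 to 1.85) and Nrxn3. Flrt2, Lrfn5, Tenm2 and Nrxn2 had log2 fold changes of 0.07, 0.15, 0.15 and -0.07.

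**Figure D5:**
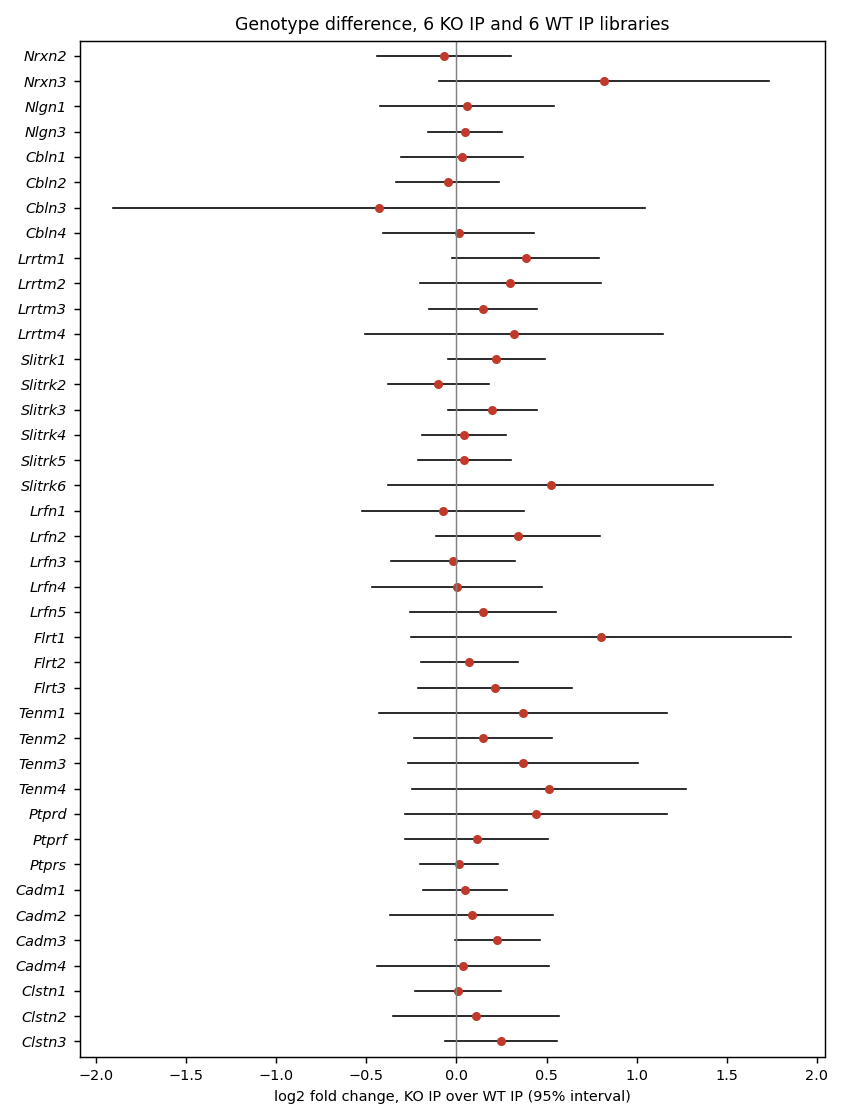
Log2 fold change of each of the 40 members, KO IP over WT IP, with its 95% interval from edgeR's quasi-likelihood fit over 6 libraries a genotype; the grey line marks no difference. Every interval includes 0, and 34 of 40 estimates lie to the right of it.

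Estimates lay above 0 for 34 of 40 members, with a median of 0.11, against 50.4% of all genes and a median of 0.00. Glial markers were above 0 in 29 of 31 tested, with a median of 0.76, and GABAergic neuron markers in 6 of 6, with a median of 1.09, 5 of the 6 at an unadjusted p under 0.05 (3.06% of all genes). Medial habenula markers, with Gpr151 among them, were above 0 in 0 of 9, with a median of -0.22. With the glial score as a term, 25 of 40 members were above 0, with a median of 0.08, against 52.4% of all genes. In that fit 17 members changed sign, among them Slitrk6 (-0.0055, from an estimate of 0.52 without the term), Tenm4 (-0.040, from 0.51) and Ptprd (-0.019, from 0.44). Others of the 17 began near 0, such as Lrfn4 (0.005) and Lrfn3 (-0.02). How many of all genes changed sign was not computed. Without the 3 libraries of highest glial score, a choice made after the values were seen, 29 of 40 were above 0, with a median of 0.09, against 49.3% of all genes. There 4 of 40 reached an unadjusted p under 0.05, all higher in KO (Nrxn3, Lrrtm1, Slitrk6 and Flrt1), against 2.96% of all genes. Without the WT library 1091, 7 of 40 members reached an unadjusted p under 0.05, all higher in KO (Nrxn3, Lrrtm1, Slitrk3, Slitrk6, Flrt1, Tenm3 and Ptprd), against 7.15% of all genes, and none was called after adjustment. The part of these cell types in the members' values was not tested beyond these fits. A test of whether the genotype difference itself differed between earlier and later libraries called 0 of 14317 genes and 0 members in edgeR, with 325 genes and 0 members at an unadjusted p under 0.05.

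Partners of the family members outside the 40, taken from a list of 37 genes of latrophilins and BAI receptors, UNC5 receptors, LAR-phosphatase ligands, netrin-G proteins and their ligands, GluD and C1q-like proteins, MDGA proteins and scaffolds, were treated alike. Of 34 at the level needed, 3 were enriched and 6 depleted in WT IP against input, where 5.83% and 8.33% of all genes were. The enriched ones were Apba1, a neurexin-binding scaffold (median log2 ratio 2.10), Mdga1, which binds neuroligins (1.96), and Lrrc4c, a netrin-G1 ligand (1.64). The depleted ones were Unc5b (-2.35), Grid1 (-2.15), Lrrc4 (-2.10), Il1rapl1 (-2.03), Lin7a (-1.77) and Adgrb2 (-1.29). Grid1 encodes a delta-type glutamate receptor that binds cerebellins, and it averaged 8.42 CPM in KO IP and 7.54 CPM in WT IP libraries, against 33.5 CPM in input. Between genotypes 0 of 36 tested partners were called by edgeR's test, 25 of 36 had estimates above 0 (50.4% of all genes), and 2 had an unadjusted p under 0.05 (3.06% of all genes), 0.0400 for Unc5b and 0.0416 for Lrrc4.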

How the data were processed

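Each library has a deposited table of raw read counts by gene symbol, not normalized. The submitters' processing notes name mm10 as build and STAR 2.3.0e, HTSeq and DESeq2 as tools; no source gives settings, strand use or gene annotation. The amplification kit was Ovation V2, per the labels' protocols. Summary rows and a row named "unknown" entered neither library sizes nor tests.

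Genotypes were compared on the 23857 symbols shared by the 12 IP libraries with edgeR 4.0.16 in R 4.3.3 (filterByExpr with a minimum count of 10 and a total of 15, TMM, robust quasi-likelihood test, library set as covariate, two-sided, Benjamini-Hochberg threshold 0.05); the 3 library sets (682 and 683, 852 and 855, the 8 later ones) come from the library numbers. Standard errors come from the fold change and F. Alternatives were DESeq2 1.42.0, other scalings and filters, a fit with the glial score, later libraries only and each library left out. IP and input were compared by the rule of size given with the results. Gene positions and exon lengths come from GENCODE M21 on GRCm38, the assembly of mm10. The functions were tested on simulated data. A count of 0 allows up to 3 counts (0.0466 to 0.106 CPM over the IP libraries), which covers counting error alone. Replicate numbers follow accession order and pair no samples. All 30 pairs of IP libraries of 1 genotype differed by more than counting error (chi-square over its degrees of freedom, 17.9 to 754). File names mention saline, for the input also saccharin, but the labels give no treatment.

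Members and gene lists were chosen with earlier results of these data known. Described in full were members called in either comparison, the member leading each family per kilobase in WT IP, and the 5 with the smallest genotype p; Slitrk6 and the other paralogs given with values were chosen after their values were seen. Left out of every test were the symbols not shared by the libraries compared.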

Additional observations from a re-analysis of the deposited data

Results flagged for a closer look

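Each member was checked for a library far from the other 5 of its group, by the gap to its nearest neighbour over the group's range. Chance flags about 1 in 20 groups if groups are independent, and 13 of 80 were flagged. The groups share libraries, so flags of the same library are not independent. The share flagged over all genes was not computed, so 13 of 80 cannot be set against a background. In WT IP, library 1091 stood above the others in 10 members. It had 113 CPM for Nrxn3 (next 43.6), 68.2 for Lrrtm1 (next 42.5), 142 for Lrrtm2 (next 81.2) and 14.9 for Lrrtm4 (next 6.79). Slitrk6 stood at 68.5 CPM in it (next 20.1), Flrt1 at 30.8 (next 8.98), Tenm1 at 283 (next 104), Tenm3 at 212 (next 98.7), Ptprd at 229 (next 90.4) and Clstn2 at 98.1 (next 57.8). In KO IP, library 1099 stood highest for Lrrtm2 at 179 CPM (next 108) and for Lrrtm4 at 18.8 CPM (next 9.10). These libraries had the highest glial score of their genotype, 4.13 in 1099 and 3.30 in 1091. The exception is Nlgn3, at 225 CPM in the WT library 1092 (next 198), whose glial score was 1.23.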

How the results depend on the processing

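Members called between genotypes stayed at 0 in every alternative, and the count of all genes called, 2, was 12 with DESeq2, 1 with a filter of 1 CPM in 6 libraries, 0 with later libraries only, 1 without the 3 libraries of highest glial score (chosen after seeing the data) and 0 to 2 with 1 library left out. The 0 arose without the KO library 683; Gpr151 then had an edgeR adjusted p of 0.0538, and 0.424 with later libraries only. Over the 40 members, 26 estimates changed sign in at least 1 alternative, none of them called. The share over all genes was not computed. With the glial score as a term 17 changed sign, and those that had been above 0.3 were then -0.040 for Tenm4, -0.0055 for Slitrk6, -0.019 for Ptprd, -0.11 for Tenm1, -0.045 for Tenm3 and -0.13 for Lrrtm4. The others given here belong to the members described in full. With the glial score as a term they were 0.088 for Nrxn2, 0.086 for Cbln2 and -0.085 for Tenm2. With later libraries only they were -0.017 for Nlgn3, -0.017 for Flrt2, -0.010 for Ptprs and -0.029 for Clstn1. With total count scaling they were -0.0065 for Ptprs and -0.0085 for Clstn1. Without the 3 libraries of highest glial score they were 0.085 for Cbln2, -0.0075 for Tenm2 and -0.025 for Ptprs. With 1 library left out they ran from -0.16 to 0.022 for Nrxn2, -0.13 to 0.018 for Cbln2, -0.16 to 0.15 for Cbln4, -0.027 to 0.055 for Ptprs and -0.038 to 0.061 for Clstn1. Against input, enriched genes numbered 649 by the rule of size, 1317 at a ratio of 1.5 and 1252 by edgeR, with enriched members at 2, 5 and 5. Depleted genes numbered 927 by the rule of size, 612 at a pseudocount of 5 CPM, 1493 at a ratio of 1.5, 576 in KO IP libraries and 1500 by edgeR. Depleted members numbered 1 by the rule of size, 2 at a ratio of 1.5, 0 in KO IP, 2 with shared-symbol library sizes (added after seeing the data), 2 by edgeR and 1 to 6 with 1 WT library left out. Enriched members numbered 1 in KO IP and 1 with shared-symbol sizes. Shares of the leading member moved by more than 1 SD for Nlgn3 (82.9% by coding length and 82.9% by counts), Lrrtm1 (27.1% and 26.6%), Slitrk3 (21.4% and 24.7%) and Lrfn5 (64.6% and 66.8%, and 58.2% by the longest transcript). For these shares the counts were the same, and only the length used as divisor, or its absence, differed. The cause of the other moves was not tested. Replicate numbers pair no samples; without the library set as a term, 2 genes and 0 members were called. With 1 input library, its own error is unknown.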
